A study of Mus musculus with 12 samples.

Results

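Translation initiation and elongation factors are the proteins that place a ribosome on a messenger RNA and move it along the coding sequence. Their genes were taken as every symbol of the count table that begins with Eif1 to Eif6, Eef1 or Eef2 and holds only letters and digits after that. The rule matched 89 symbols, 1 of them, Eif4a3l2, was left out as a pseudogene, and 88 of 53819 symbols remained. Of these 88, 83 had at least 1 count and 71 had enough counts to be tested, among 13852 genes tested in all. The 5 members with no count were Eif4ebp3, an eIF4E-binding protein gene, and 4 of the 17 numbered copies of Eif1ad. The 12 members counted but too low to test had at most 81 counts over all libraries. They were Eef1a2, the tissue-restricted form of eEF1A, Eif4e1b, an eIF4E paralogue, Eif2c5, annotated as a long non-coding RNA, and 9 further Eif1ad copies.

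The libraries came from E14, an established mouse embryonic stem cell line, grown in 2 dimensions and sequenced from polyadenylated RNA with a 3′ end kit. The groups held 3 libraries each: cells given both L-proline and budesonide for 72 h, cells given L-proline alone for 72 h, cells given budesonide alone for 72 h, and untreated control cells. Budesonide is a synthetic glucocorticoid, and L-proline is an amino acid known to move mouse embryonic stem cells away from the naive state. The labels give no dose and do not state whether the replicates of a group were grown apart, so a p-value here reflects library-to-library spread that may be technical only.

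Libraries held 5299432 to 15921283 counts. Budesonide 3 and control 3 stood apart: 8.43% and 6.57% of tested genes were at 0 there, while the remaining 10 had 1.39% to 5.77% at 0. Rn18s, a ribosomal RNA, made up 2.21% to 6.70% of each total. Mitochondrially encoded genes took 5.51% to 5.79% with proline and 7.31% to 8.03% in the other groups. All 6 embryonic stem cell markers checked (Pou5f1, Sox2, Nanog, Esrrb, Zfp42, Dppa5a) were counted, with summed levels of 1773 to 1871 CPM (counts scaled to a common library total) with both compounds, 1047 to 1297 CPM with proline, 1588 to 1915 CPM with budesonide and 1435 to 2028 CPM in control. Of 6 fibroblast markers, Postn had no count and the sums of the list were 3.33 to 7.33 CPM with both compounds, 9.90 to 17.4 CPM with proline, 5.44 to 7.31 CPM with budesonide and 8.87 to 15.9 CPM in control. The sums of 5 extraembryonic endoderm markers, all counted, were 13.3 to 20.4 CPM with both compounds, 21.2 to 24.8 CPM with proline, 5.44 to 14.8 CPM with budesonide and 4.61 to 11.3 CPM in control. The part of marker levels and mitochondrial share in the results was not tested. CPM values of the factors and of the genes around them are scaled by edgeR's TMM factors, and all marker sums by the library total alone. None are divided by transcript length, and levels are compared between libraries and not between genes. A sum over genes is weighted toward the genes with the most counts.

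Initiation starts when the trimer eIF2 brings the initiator methionyl-tRNA to the small ribosomal subunit together with eIF1, eIF1A, eIF3 and eIF5. The eIF4F factors bind the cap and unwind the leader, and eIF5B joins the large subunit. In elongation, eEF1A delivers aminoacyl-tRNAs, eEF1B recharges eEF1A with GTP, and eEF2 moves the ribosome by one codon. Phosphorylation of eIF2 by stress kinases blocks its exchange factor eIF2B and lowers initiation, and mRNAs of many elongation factors and some eIF3 subunits begin with a pyrimidine tract (the TOP motif) through which mTORC1 and Larp1 control their translation.

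Start-site sequences are shown for members whose changes are described in detail and for Eef1a1, a standard example of a TOP mRNA. They let annotated starts with and without a long pyrimidine run be read side by side. Whether the annotated starts are those used in these cells was not tested, so a missing run does not show that an mRNA lacks a TOP start. RefSeq promoter sequences of build GRCm38.p6 were at hand for 55 of the 88 members, and the windows of Eef1akmt1, Eef1d, Eef1g, Eif2b3, Eif3h, Eif3i and Eif6 were not among them. Each line gives 15 bases before and 15 bases from the annotated start, 5′ to 3′ on the gene's strand, with capitals for a run of at least 10 pyrimidines or for the cyclic AMP response element TGACGTCA.
Eif2s2: cacgtaaggttggctttactgtacgcctgc
Eif4h: gtgcgacttgcgatcaggcagcgcggcgga
Eif1ax: gaggaggaggagggcggggagaagccccgc
Eif3c: ctcacctgctcagagggactcggcagctta
Eif3f: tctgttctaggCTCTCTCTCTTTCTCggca
Eef1b2: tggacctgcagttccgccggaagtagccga
Eef2: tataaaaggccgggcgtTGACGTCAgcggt
Eef1a1: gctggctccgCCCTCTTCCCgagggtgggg

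The windows lie at chr2:154892892-154892921 (minus strand) for Eif2s2, chr5:134639395-134639424 (minus strand) for Eif4h, chrX:159372163-159372192 (plus strand) for Eif1ax and chr7:126566352-126566381 (minus strand) for Eif3c. Those of Eif3f, Eef1b2, Eef2 and Eef1a1 lie at chr7:108934400-108934429 (plus strand), chr1:63176816-63176845 (plus strand), chr10:81176616-81176645 (plus strand) and chr9:78481710-78481739 (minus strand). The start of Eif3f held a run of 15 pyrimidines and that of Eef1a1 a run of 10, read on the gene's strand alone. Counted by gene, such a run occurred in at least 1 start window of 10 of the 55 members and of 6.25% of all 27025 RefSeq genes. Counted by window, it occurred in 10 of the members' 70 windows of 30 bases and in 5.34% of all 32851 windows. In the longer windows of 300 bases, read on both strands, TGACGTCA occurred in 1 member, Eef2, and in 2.03% of all genes. The Atf4-type element TGATGNAAN occurred in 2 members, Eef2k and Eif2s3x, and in 4.5% of all genes.

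The first question was how proline and budesonide, alone and together, moved these mRNAs. Proline alone raised a set of initiation factors and the elongation factor Eef2 and lowered Eif2s2, the beta subunit of eIF2. Budesonide lowered all 3 subunits of the eEF1B exchange complex, Eif3c and Eif3h of eIF3 and Eif2b1 of eIF2B, both in untreated and in proline-treated cells. Eif2s2 was the single member called in the test of whether the proline response differs with budesonide. Most calls did not hold under every other processing setting and left-out library tried, that of Eef2 among them. Those that held were 3 of 10 for proline and 2 of 11 for budesonide against control, and 5 of 19 for both compounds against proline.

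Against control, proline changed 10 of 71 tested members, where 7.88% of all tested genes changed (edgeR's quasi-likelihood test with Benjamini-Hochberg adjustment over all 13852 genes, adjusted p below 0.05). It raised 8 members, where 3.17% of all tested genes rose, and lowered 2, where 4.71% fell. Below, a call without a named tool is one of this edgeR fit. The median log2 change was 0.10 over the members and -0.01 over all tested genes. Against control, budesonide changed 11 members, where 6.51% of all tested genes changed. It raised 1 and lowered 10, where 2.51% of all tested genes rose and 4% fell. Their median was -0.26 against 0.01 over all tested genes, and 55 of the 71 members had a negative value, against 49% of all tested genes. In bulk RNA, fewer cells of a type and less RNA per cell cannot be told apart. Without any 1 control library, any 1 proline library or both-compound 2, proline called 3 to 6 members in place of 10. Without control 2, control 3 or budesonide 3, budesonide called 7 members in place of 11.

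Both compounds against proline changed 19 members, where 10.1% of all tested genes changed. They raised 3 and lowered 16, where 5.83% of all tested genes rose and 4.27% fell, with a median of -0.18 over the members and 0.02 over all tested genes. Both compounds against control changed 10 members, where 7.17% of all tested genes changed. They raised 2 and lowered 8, where 3.34% rose and 3.83% fell. Both compounds against budesonide changed 2 members, where 1.47% of all tested genes changed. They raised these 2, where 0.874% of all tested genes rose, and lowered 0, where 0.592% fell. There, 3 members had an unadjusted p below 0.05 for a lower level in edgeR, and DESeq2 and limma-voom each called 0. The interaction, which is the proline effect with budesonide minus the proline effect without it, was called for 1 member, where 0.411% of all tested genes had a higher and 0.0578% a lower value. In the lower direction, edgeR, DESeq2 and limma-voom called 0 members and 4 had an unadjusted p below 0.05 in edgeR. Without proline 1, both-compound 1 or both-compound 2, both compounds against proline called 8 to 9 members in place of 19, and without both-compound 1 or 2, both compounds against control called 3 and 5 in place of 10.

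The members together took 2.40% ± 0.0771 of all counts with both compounds, 2.71% ± 0.0289 with proline, 2.32% ± 0.0907 with budesonide and 2.56% ± 0.108 in control (SD, n = 3 each). The lowest proline library and control 3 were both at 2.68%, and the lowest control library was at 2.49%. The budesonide libraries ran from 2.22% to 2.40%, all below the control libraries, and the libraries of both compounds from 2.36% to 2.49%, all below the proline libraries.

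**Figure D1:**
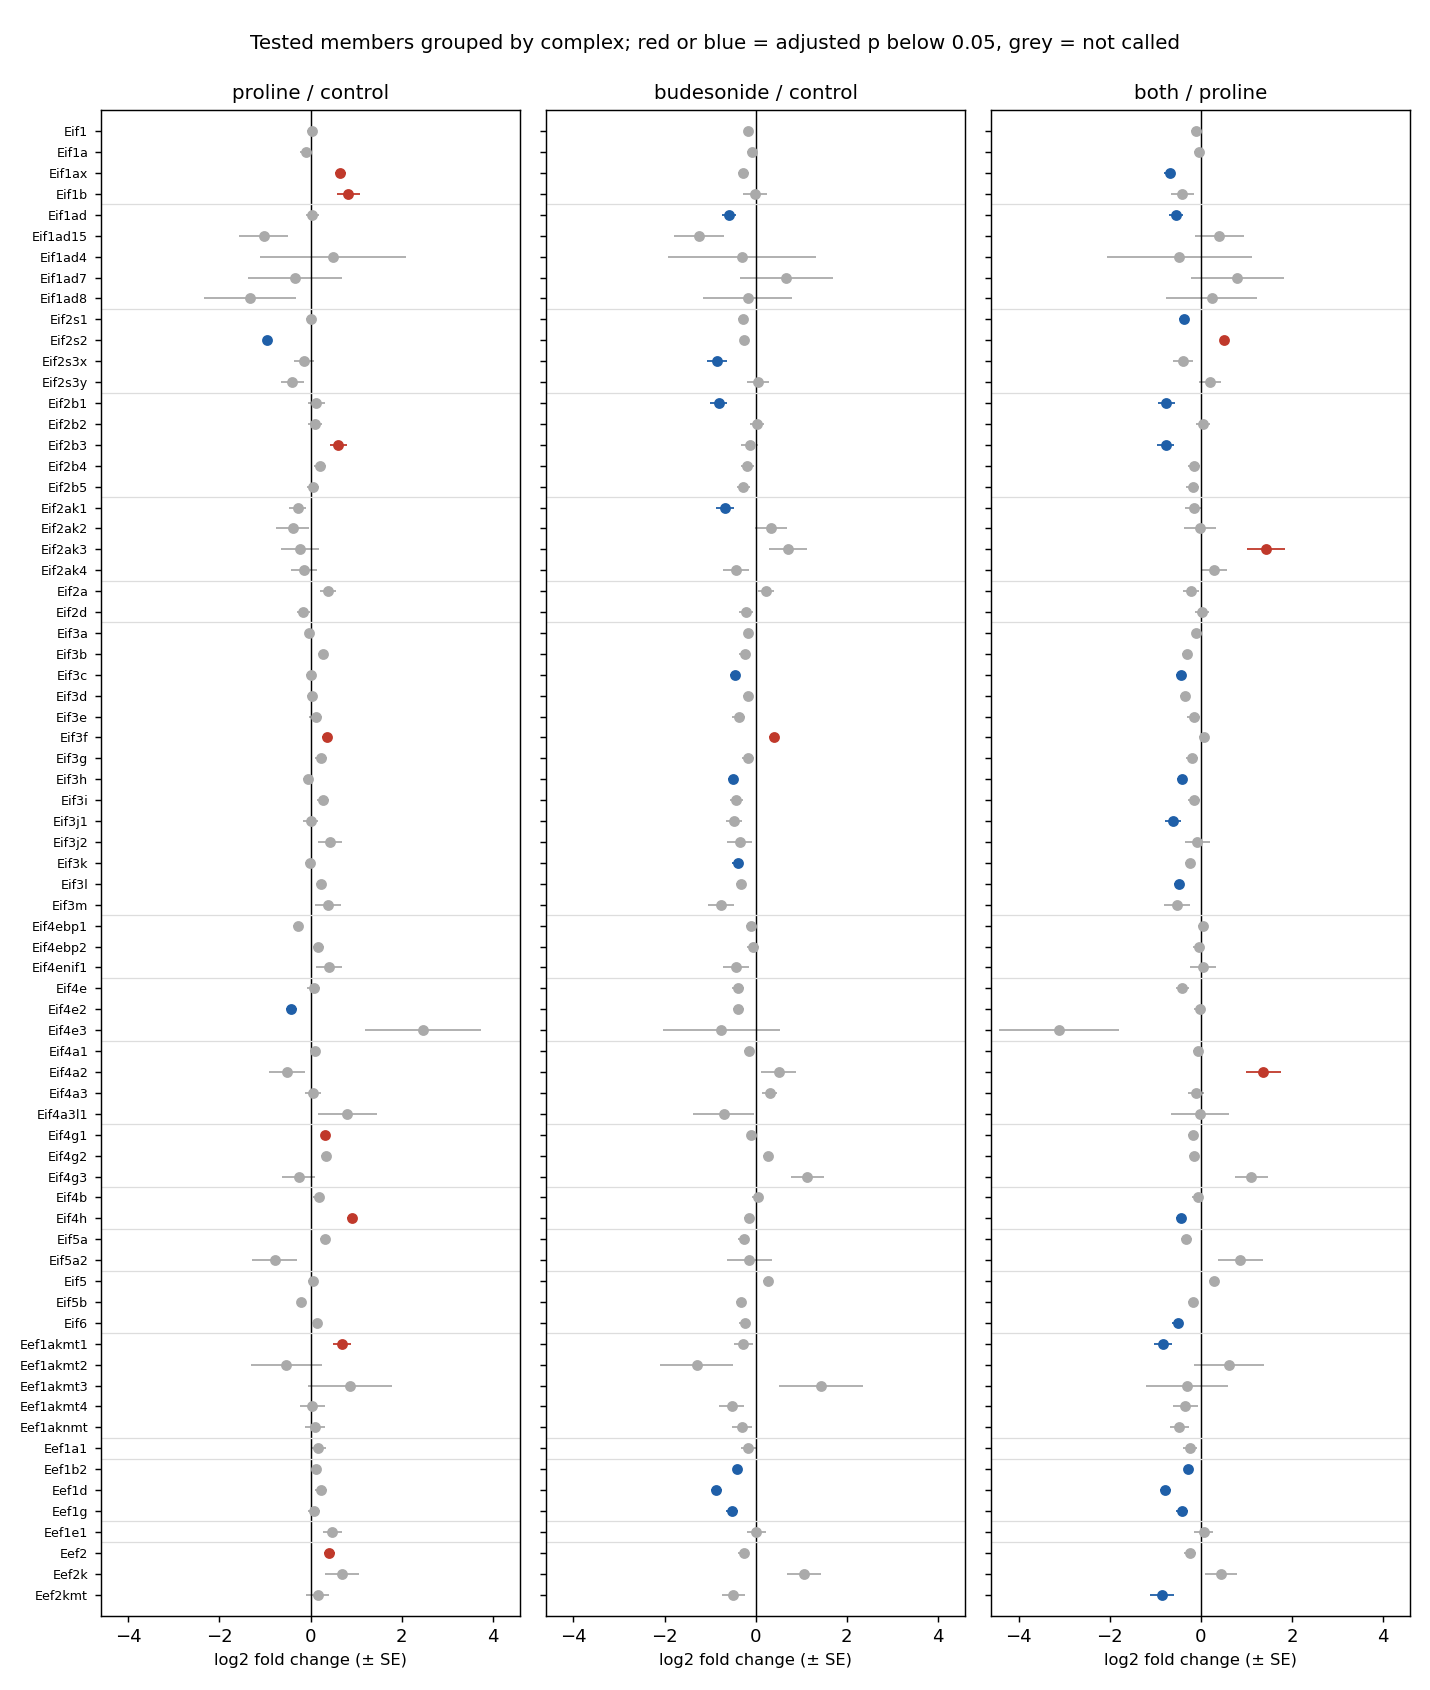
Log2 fold change with its standard error for tested members from Eif1 to Eef2kmt, in 3 panels: proline over control, budesonide over control, and both compounds over proline, with lines between complexes. Red points were called higher and blue points called lower at an adjusted p below 0.05; the proline panel has 8 red and 2 blue points, the budesonide panel 1 red and 10 blue, and the panel of both compounds 3 red and 16 blue.

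Among the subunits of eIF2, Eif2s2 fell with proline, and it was higher with both compounds than with proline alone. Eif2s2 encodes the beta subunit, which contacts the GTPase activator eIF5. It had 2050, 2080 and 2112 CPM with both compounds, 1580, 1413 and 1418 CPM with proline, 2403, 2382 and 2330 CPM with budesonide and 2773, 2711 and 3075 CPM in control. The 3 proline libraries lay below all others, the control libraries above all others, and no 2 groups overlapped. Proline changed Eif2s2 by -0.96 ± 0.08 on the log2 scale (SE, edgeR adjusted p = 7.93e-08), to 0.515 times the control level. With both compounds it was 0.50 ± 0.08 above proline (adjusted p = 0.000338) and -0.46 ± 0.08 relative to control (adjusted p = 0.00134). Budesonide alone gave -0.27 ± 0.08 (adjusted p = 0.059), which was not called here but passed under 3 of the alternatives (DESeq2, limma-voom and upper-quartile scaling). The interaction was 0.77 ± 0.12 (adjusted p = 0.00145). These 4 Eif2s2 calls held under every alternative run, of which there were 22 for the interaction and 23 for each other comparison.

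The other eIF2 subunits did not show that pattern. Eif2s1, the alpha subunit that stress kinases phosphorylate, had 219, 214 and 218 CPM with both compounds and 278, 262 and 298 CPM with proline, with no overlap. It fell by 0.36 on the log2 scale (SE 0.11, edgeR adjusted p = 0.0324). Its values with budesonide were 228, 226 and 232 CPM, all below the 274, 294 and 261 CPM of control, a change of -0.27 ± 0.11 that was not called (adjusted p = 0.147). Between both compounds and control, the Eif2s1 difference of -0.35 ± 0.11 was not called either (adjusted p = 0.0521). That difference passed under 6 of the 23 alternatives, DESeq2 among them. Eif2s3x, the X-linked gene of the tRNA-binding gamma subunit, had 43.8, 28.4 and 30.3 CPM with budesonide and 70.7, 70.9 and 44.1 CPM in control. Control 3 was just above the highest budesonide library, and Eif2s3x fell with budesonide by 0.85 ± 0.22 (adjusted p = 0.0208). Its Y-linked partner Eif2s3y averaged 30.7 ± 5.95 CPM with budesonide and 29.7 ± 3.44 CPM in control (SD, n = 3) and was called in no comparison. How reads that match both copies were treated is not given in the sources used here, so the split between Eif2s3x and Eif2s3y is uncertain.

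The calls of Eif2s1 and Eif2s3x rested on few libraries. For Eif2s1, both compounds against proline, the call ended without any 1 both-compound library or proline 1 or 3 or with low counts kept in (adjusted p = 0.00182 to 0.142 over the alternatives). For Eif2s3x, budesonide against control, it ended without budesonide 2 or 3 or control 1 or 2 or with the fit limited to the compared groups (adjusted p = 0.0028 to 0.101 over the alternatives).

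eIF2B, the 5-subunit exchange factor that returns eIF2 to its GTP form, was lower with budesonide in its alpha subunit gene. Eif2b1 had 58.4, 65.9 and 83.1 CPM with both compounds, 116, 119.6 and 115 CPM with proline, 59.3, 67.7 and 56 CPM with budesonide and 129, 117 and 75 CPM in control. The proline libraries were tightly grouped above every library that had received budesonide, while control 3 lay among the libraries of both compounds. Eif2b1 fell with budesonide against control by 0.81 ± 0.18 on the log2 scale (SE, edgeR adjusted p = 0.00788), with both compounds against proline by 0.76 ± 0.18 (adjusted p = 0.00771) and with both compounds against control by 0.63 ± 0.18 (adjusted p = 0.0359). Eif2b3, the gamma subunit of the catalytic part, had 82.5, 80.5 and 84.9 CPM with proline and 54.5, 53.4 and 55.2 CPM in control, and 62.8, 44.5 and 38.5 CPM with both compounds. It rose with proline by 0.60 ± 0.19 (adjusted p = 0.0465) and fell with both compounds against proline by 0.77 ± 0.19 (adjusted p = 0.00845). The groups did not overlap in either Eif2b3 comparison. The remaining subunits Eif2b2, Eif2b4 and Eif2b5 were called in no comparison. The catalytic epsilon subunit Eif2b5 averaged 173 ± 17.7 CPM with both compounds, 196 ± 18.6 with proline, 157 ± 18 with budesonide and 189 ± 27.3 in control (SD, n = 3 each).

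For Eif2b1, the budesonide call against control ended without control 1 (adjusted p = 0.000235 to 0.0606 over the alternatives), the call of both compounds against proline without both-compound 1 (adjusted p = 0.000387 to 0.0653 over the alternatives), and that of both compounds against control without both-compound 1 or 2, proline 3 or control 1 or 2, in limma-voom or with the fit limited to the compared groups (adjusted p = 0.00155 to 0.199 over the alternatives). For Eif2b3, the proline call ended without both-compound 2, any 1 proline library, budesonide 2 or any 1 control library or without control 3 and budesonide 3 together (adjusted p = 0.0215 to 0.138 over the alternatives), and the call of both compounds against proline without both-compound 2 or 3 (adjusted p = 0.00135 to 0.0605 over the alternatives).

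Of the 4 kinases that phosphorylate eIF2 alpha, 2 were called in 1 comparison each. Eif2ak3 (PERK, the kinase of endoplasmic reticulum stress) had 20.9, 23 and 22.3 CPM with both compounds, 6.48, 8.59 and 9.59 CPM with proline, 14.3, 6.66 and 25.9 CPM with budesonide and 13.6, 10.02 and 5.24 CPM in control. The libraries of both compounds lay close together and above all proline libraries, while the budesonide and control libraries were scattered over the whole range. Both compounds raised Eif2ak3 by 1.43 ± 0.41 on the log2 scale against proline (SE, edgeR adjusted p = 0.0271). Eif2ak1 (HRI, the heme-regulated kinase) had 33.3, 43.9 and 46.9 CPM with budesonide and 56.9, 64.6 and 76.2 CPM in control, with no overlap, and fell by 0.67 ± 0.19 (adjusted p = 0.0339). Eif2ak4 (GCN2), which senses uncharged tRNA and so amino acid shortage, averaged 20.4 ± 2.27 CPM with proline and 22.4 ± 5.23 CPM in control (SD, n = 3) and was not called, with a log2 difference of -0.14 ± 0.28 (adjusted p = 0.865). Eif2ak2 (PKR, activated by double-stranded RNA) ranged from 6.61 to 18.5 CPM over the 12 libraries and was called in no comparison. The Eif2ak3 call ended without any 1 both-compound library or any 1 proline library (adjusted p = 0.0024 to 0.123 over the alternatives), and the Eif2ak1 call without budesonide 1 or 2 or control 2 or 3, with the fit limited to the compared groups or without control 3 and budesonide 3 together (adjusted p = 0.0118 to 0.145 over the alternatives).

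Eif2a and Eif2d, which can bring initiator tRNA to the ribosome without eIF2, were called in no comparison. Eif2d averaged 108 ± 13.4 CPM with both compounds, 106 ± 3.43 with proline, 101 ± 18.4 with budesonide and 118 ± 10.3 in control (SD, n = 3 each).

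Among the start codon factors, Eif1ax rose with proline and was lower with both compounds than with proline alone. Eif1ax is the X-linked gene of eIF1A, which holds the ribosome open during scanning. It had 219.9, 206 and 172 CPM with both compounds, 321, 302 and 337 CPM with proline, 177, 175 and 153 CPM with budesonide and 208, 208 and 195 CPM in control. All 3 proline libraries lay above every library of the other 3 groups, and the budesonide libraries lay below the control libraries. Proline changed Eif1ax by 0.65 ± 0.12 (SE, edgeR adjusted p = 0.000982), a 1.57-fold rise, and both compounds against proline by -0.68 ± 0.12 (adjusted p = 0.000539), and both calls held under every alternative. The interaction was -0.41 ± 0.17 and was not called (adjusted p = 0.485). The near-identical autosomal gene Eif1a had 224, 251 and 224 CPM with proline and 258, 259 and 238 CPM in control, with a log2 difference of -0.11 ± 0.11 that was not called (adjusted p = 0.676). How reads that match both genes were treated is not given in the sources used here, so the split between Eif1ax and Eif1a is uncertain.

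Eif1b, a paralogue of the start codon selector Eif1, had 66, 41.9 and 78.4 CPM with proline and 38.3, 34.3 and 32.1 CPM in control. The proline libraries were widely spread but all above control, and Eif1b rose by 0.83 ± 0.26 (SE, edgeR adjusted p = 0.0488). This call ended without any 1 both-compound library, proline 1 or 3, budesonide 2 or any 1 control library, in limma-voom, with transcript length offsets or without control 3 and budesonide 3 together (adjusted p = 0.00522 to 0.244 over the alternatives). Eif1 itself averaged 450.5 ± 42.4 CPM with both compounds, 487 ± 12.6 with proline, 426 ± 37.9 with budesonide and 476 ± 14.3 in control (SD, n = 3 each) and was called in no comparison.

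Eif1ad, whose human counterpart takes part in the maturation of the small ribosomal subunit, had 86.3, 101 and 107 CPM with both compounds, 153, 133 and 141 CPM with proline, 84.5, 109.6 and 84.4 CPM with budesonide and 134, 118 and 162 CPM in control. The budesonide libraries lay below all control libraries, and the libraries of both compounds lay below all proline libraries. Eif1ad fell with budesonide by 0.58 ± 0.15 (SE, edgeR adjusted p = 0.0223) and with both compounds against proline by 0.54 ± 0.15 (adjusted p = 0.0245). The first call ended without budesonide 1 or 3 or control 3, with the fit limited to the compared groups or without control 3 and budesonide 3 together (adjusted p = 0.00598 to 0.261 over the alternatives), and the second without both-compound 1 or 2 or proline 1 or 3 (adjusted p = 0.00817 to 0.141 over the alternatives). Between both compounds and control, the Eif1ad difference of -0.50 ± 0.15 was not called (edgeR adjusted p = 0.0502). That difference passed under 9 of the 23 alternatives, DESeq2 among them. Of the 17 numbered Eif1ad copies, 4 could be tested and none was called, with 0 to 10.9 CPM in every library. The 2-cell-like marker list, whose cell state is known to express such copies, summed to 2.73 to 7.85 CPM with both compounds, 5.16 to 6.72 CPM with proline, 0.944 to 6.13 CPM with budesonide and 5.85 to 10.6 CPM in control. The treatment of reads shared by such copies is not given in the sources used here, so the level of each copy is uncertain.

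**Figure D2:**
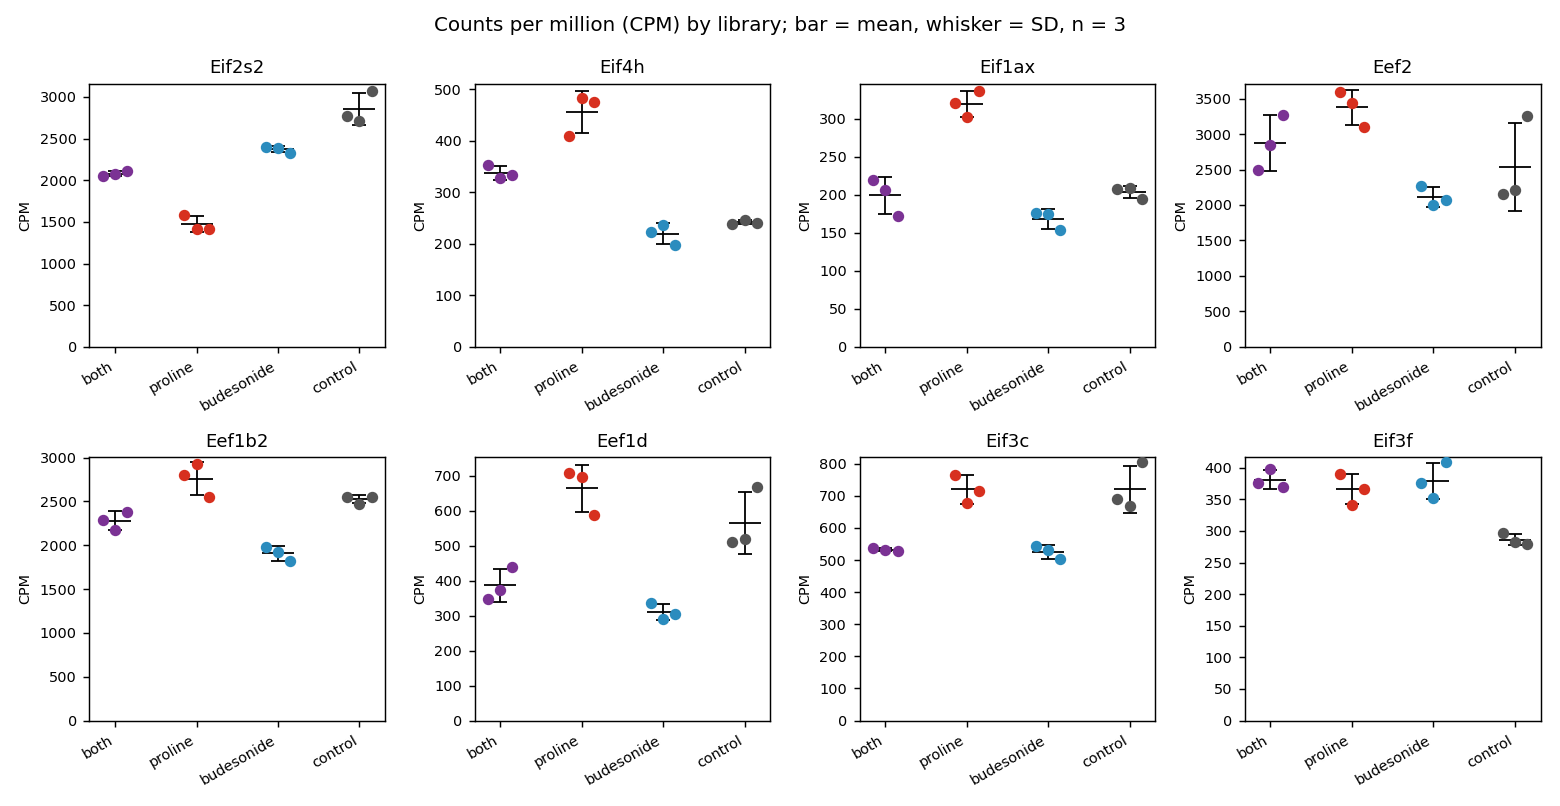
CPM of 8 members (Eif2s2, Eif4h, Eif1ax, Eef2, Eef1b2, Eef1d, Eif3c, Eif3f) in each of the 12 libraries, with every axis starting at 0; points are libraries, the long bar is the mean and the whisker the SD of 3 libraries. Eif2s2 is lowest in the 3 proline libraries (1413 to 1580 CPM), Eif4h and Eif1ax are highest there, Eef1d and Eif3c are lowest in the 6 libraries that received budesonide, and Eif3f is lowest in control.

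eIF3, the largest initiation factor, is a scaffold that ties the small subunit to the other factors, and all 14 of its genes were tested. Budesonide lowered Eif3c, Eif3h and Eif3k and raised Eif3f against control, and the 10 other genes were not called. Among the 14, 13 had a negative log2 value with budesonide, with a median of -0.36. Both compounds against proline lowered Eif3c, Eif3h, Eif3j1 and Eif3l, and the other 10 were not called, with a median of -0.28. Of these uncalled differences, those of Eif3i and Eif3l with budesonide passed under 6 and 1 of the 23 alternatives, and those of Eif3d and Eif3b between both compounds and proline under 10 and 5. Proline alone raised Eif3f and left 13 uncalled, with a median of 0.17. The summed level of the 14 genes was 5080, 4931 and 5358 CPM with both compounds, 6299, 6042 and 6029 CPM with proline, 4694, 4772 and 4593 CPM with budesonide and 5544, 5457 and 6119 CPM in control. All 3 budesonide sums lay below every other library, and the sums with both compounds lay below those with proline and with control.

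Eif3c, a core subunit, had 538, 531 and 528 CPM with both compounds, 766, 678 and 716 CPM with proline, 545, 530 and 502 CPM with budesonide and 689.7, 667 and 804 CPM in control. The 6 libraries with budesonide lay within a narrow band below all 6 libraries without it. It fell with budesonide by 0.45 ± 0.10 (SE, edgeR adjusted p = 0.00689), with both compounds against proline by 0.44 ± 0.10 (adjusted p = 0.00579) and with both compounds against control by 0.44 ± 0.10 (adjusted p = 0.00787). Eif3h, one of the subunits with an MPN fold, had 372, 407 and 427 CPM with both compounds, 574, 537 and 495 CPM with proline, 385, 387 and 407 CPM with budesonide and 532, 518 and 616 CPM in control. Its 6 libraries with budesonide also lay below all 6 without it, and Eif3h fell in the same comparisons by 0.50 ± 0.11 (adjusted p = 0.00525), 0.41 ± 0.11 (adjusted p = 0.0132) and 0.47 ± 0.11 (adjusted p = 0.00745). The Eif3c call against control with budesonide alone ended without control 3 and budesonide 3 together (adjusted p = 6.4e-05 to 0.0988 over the alternatives), and its other 2 calls held under every alternative. For Eif3h, the same calls ended with transcript length offsets (adjusted p = 5.99e-05 to 0.0733 over the alternatives), without both-compound 1 or proline 1 or with transcript length offsets (adjusted p = 0.000798 to 0.0922 over the alternatives) and without both-compound 1 (adjusted p = 0.000131 to 0.0659 over the alternatives).

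Eif3f, also an MPN-fold subunit, moved the other way. Its start window held a pyrimidine run, as did that of Eif3l, which fell with both compounds against proline. Eif3f had 376, 398 and 369.8 CPM with both compounds, 389, 342 and 367 CPM with proline, 375, 352 and 409.7 CPM with budesonide and 296, 283 and 279 CPM in control. The 3 control libraries lay below all 9 treated libraries, which overlapped each other. Eif3f rose by 0.41 ± 0.11 with both compounds (SE, edgeR adjusted p = 0.0165), 0.36 ± 0.11 with proline (adjusted p = 0.0382) and 0.41 ± 0.11 with budesonide (adjusted p = 0.0202), and these 3 comparisons share their control libraries. For Eif3f, the call for both compounds ended without both-compound 1 or 2 or control 2 (adjusted p = 0.000395 to 0.0889 over the alternatives). The call for proline ended without both-compound 1 or 2, proline 1 or 3 or any 1 control library, with low counts kept in, with transcript length offsets, with the fit limited to the compared groups or without control 3 and budesonide 3 together (adjusted p = 0.00312 to 0.18 over the alternatives). The call for budesonide ended without budesonide 3 or control 2 or 3, with the fit limited to the compared groups or without control 3 and budesonide 3 together (adjusted p = 0.000399 to 0.136 over the alternatives).

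Eif3j1, the loosely bound subunit, had 55.7, 57.9 and 59.2 CPM with both compounds, 93, 82.6 and 88.8 CPM with proline, 76.6, 63.5 and 50.6 CPM with budesonide and 90.3, 72.5 and 101 CPM in control. The libraries of both compounds lay below all proline and control libraries, budesonide 3 was the lowest of all, and Eif3j1 fell by 0.61 ± 0.17 against proline (SE, edgeR adjusted p = 0.0222) and by 0.61 ± 0.17 against control (adjusted p = 0.0304). Reads of its copy Eif3j2, which was called in no comparison, may be shared with it. Eif3l had 384, 348 and 425 CPM with both compounds and 509, 549 and 560.5 CPM with proline and fell by 0.48 ± 0.11 (adjusted p = 0.00607), and its partner Eif3k had 419, 527 and 547 CPM with budesonide and 585, 631 and 752 CPM in control and fell by 0.40 ± 0.12 (adjusted p = 0.0372). Groups did not overlap for either gene. Eif3i, a subunit of the module beside the mRNA entry, had 471, 436 and 615 CPM with both compounds and 328, 413 and 298 CPM with budesonide, with no overlap, and rose by 0.55 ± 0.14 (adjusted p = 0.0395).

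For Eif3j1, the call against proline ended without any 1 both-compound library or proline 1 or 3 (adjusted p = 0.00542 to 0.0931 over the alternatives), and that against control without any 1 both-compound library or control 1 or 3 or without control 3 and budesonide 3 together (adjusted p = 0.00985 to 0.138 over the alternatives). The Eif3l call ended without both-compound 2 (adjusted p = 0.000296 to 0.0523 over the alternatives). For Eif3k it ended without both-compound 1 or 2, proline 1, budesonide 1 or control 2 or 3, with transcript length offsets, with the fit limited to the compared groups or without control 3 and budesonide 3 together (adjusted p = 0.0112 to 0.449 over the alternatives). The Eif3i call ended without both-compound 1 or 3, proline 1 or 3 or budesonide 1 or 3, with transcript length offsets, with the fit limited to the compared groups or without control 3 and budesonide 3 together (adjusted p = 0.00173 to 0.275 over the alternatives). Of the eIF3 genes called nowhere, Eif3a, the largest subunit, averaged 702 ± 9.22 CPM with both compounds, 749.6 ± 13.8 with proline, 683 ± 30.4 with budesonide and 770.4 ± 27.5 in control (SD, n = 3 each).

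**Figure D3:**
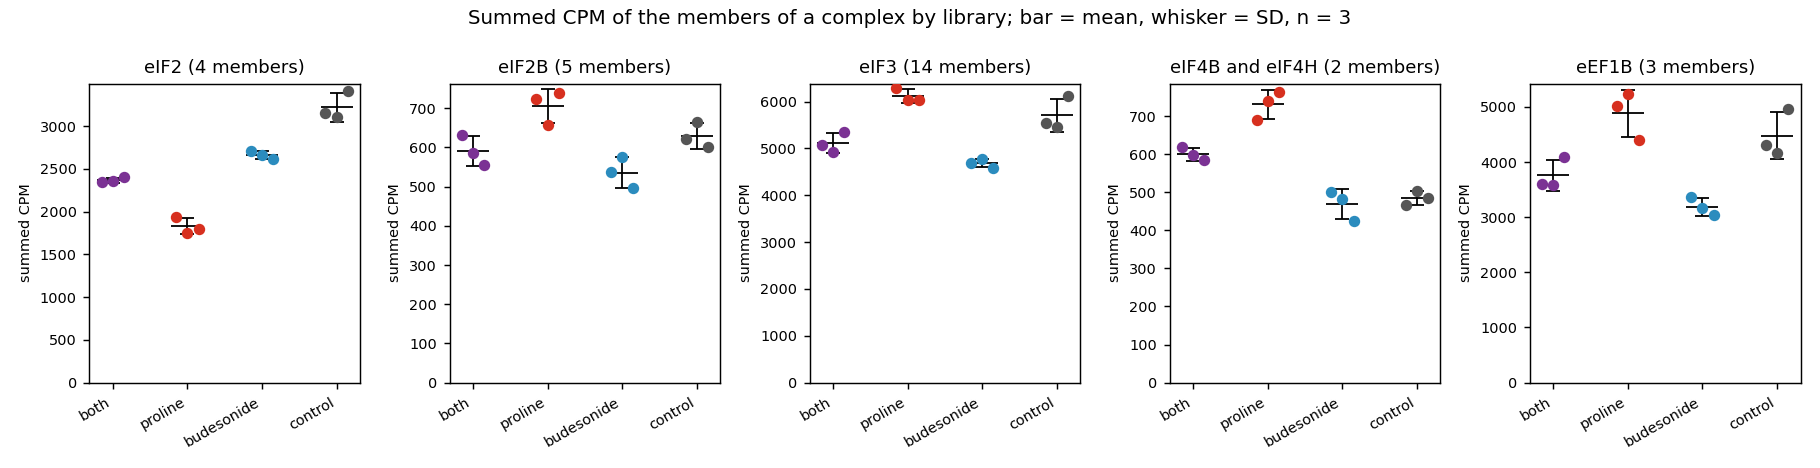
Summed CPM per library of the tested genes of eIF2, eIF2B, eIF3, the pair Eif4b and Eif4h, and eEF1B, with axes from 0; points are libraries, the long bar is the mean and the whisker the SD of 3 libraries. The eIF2 sum is lowest with proline (1752 to 1932 CPM) and the eIF3 and eEF1B sums are lowest with budesonide (4593 to 4772 and 3035 to 3358 CPM). Most of the eIF2 sum is Eif2s2, with 1413 to 1580 CPM with proline. In control, Eif2s2 gives 2711 to 3075 CPM of an eIF2 sum of 3101 to 3413 CPM.

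Among the eIF4 factors, Eif4h rose with proline whether or not budesonide was present. Eif4h encodes a cofactor of the helicase eIF4A. It had 352, 327 and 334 CPM with both compounds, 409.6, 482 and 475 CPM with proline, 224, 237 and 197 CPM with budesonide and 238, 245 and 241 CPM in control. The proline libraries were highest, those of both compounds were in between, and the budesonide and control libraries were lowest, with no overlap between any of the groups. Proline changed Eif4h by 0.92 ± 0.11 (SE, edgeR adjusted p = 6.21e-06), a 1.89-fold rise, and both compounds changed it by 0.62 ± 0.11 against budesonide (adjusted p = 0.00399). These 2 comparisons share no library, and both calls held under every alternative. Both compounds gave 0.48 ± 0.11 against control (adjusted p = 0.00779) and -0.43 ± 0.11 against proline (adjusted p = 0.0122). The call against control ended without both-compound 1 (adjusted p = 0.00022 to 0.0516 over the alternatives), and that against proline without both-compound 2 or proline 2 or 3 (adjusted p = 0.00064 to 0.0671 over the alternatives). The interaction of -0.29 ± 0.16 was not called (adjusted p = 0.631). Eif4b, the other cofactor of eIF4A, was called in no comparison and averaged 262 ± 10.6 CPM with both compounds, 275 ± 17 with proline, 251 ± 25 with budesonide and 244 ± 14.5 in control (SD, n = 3 each).

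Eif4g1, the scaffold of the cap-binding complex, had 1128, 1030 and 1049 CPM with proline and 759, 882 and 936 CPM in control. The groups did not overlap, and Eif4g1 rose by 0.32 ± 0.10 (SE, edgeR adjusted p = 0.0474), a call that ended without both-compound 1 or 2, any 1 proline library, budesonide 1 or control 1 or 2, with low counts kept in or with the fit limited to the compared groups (adjusted p = 0.0104 to 0.237 over the alternatives). Eif4g2 (DAP5), a relative that lacks the eIF4E-binding site, averaged 1504 ± 112 CPM with proline and 1192 ± 84 CPM in control (SD, n = 3), a log2 difference of 0.34 ± 0.11 that was not called here (adjusted p = 0.0522) and passed under 11 of the 23 alternatives (adjusted p = 0.00714 to 0.216). Eif4g3 differed by 1.13 ± 0.36 between budesonide and control and was not called (adjusted p = 0.0654), with 56.7, 23.4 and 83 CPM with budesonide and 31.6, 27 and 16.2 CPM in control. Between both compounds and proline it differed by 1.11 ± 0.36 and was not called either (adjusted p = 0.0563). These Eif4g3 differences passed under 4 and 11 of the 23 alternatives, DESeq2 among them in both (adjusted p = 0.000407 to 0.623 and 0.000341 to 0.23 over the alternatives).

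Eif4a2, one of the helicases of eIF4F, had 72.6, 60.8 and 60.02 CPM with both compounds, 18.7, 33.9 and 22.8 CPM with proline, 46.6, 27 and 78.5 CPM with budesonide and 52.9, 44 and 10.9 CPM in control. The libraries of both compounds lay above all proline libraries, control 3 was the lowest library of all and budesonide 3 the highest. Eif4a2 rose with both compounds against proline by 1.37 ± 0.39 (SE, edgeR adjusted p = 0.0245), and the call ended without both-compound 1 or 2 or proline 1 or 3 or in DESeq2 (adjusted p = 1.61e-07 to 0.119 over the alternatives). The main helicase Eif4a1 averaged 782 ± 66.2 CPM with both compounds, 818 ± 54.7 with proline, 688 ± 22.5 with budesonide and 763 ± 80.5 in control (SD, n = 3 each) and was called in no comparison. Eif4a3, a core protein of the exon junction complex, and its copy Eif4a3l1 were also called in none, and reads of that pair may be shared.

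Of the cap-binding proteins, Eif4e2 (4EHP), which competes with eIF4E for the cap and represses translation, had 246, 223 and 284 CPM with both compounds, 258, 264 and 243 CPM with proline, 289.7, 262 and 234 CPM with budesonide and 322, 333 and 367 CPM in control. All 9 treated libraries lay below the control libraries. Eif4e2 fell with both compounds by 0.44 ± 0.12 (SE, edgeR adjusted p = 0.0262) and with proline by 0.42 ± 0.12 (adjusted p = 0.0314), and with budesonide the difference of -0.38 ± 0.12 was not called (adjusted p = 0.0589) but passed under 6 of the 23 alternatives, DESeq2 and limma-voom among them. The call with both compounds ended without both-compound 1 or 2 or control 2 or 3 or without control 3 and budesonide 3 together (adjusted p = 0.00425 to 0.165 over the alternatives), and the proline call without any 1 proline library or any 1 control library or without control 3 and budesonide 3 together (adjusted p = 0.00892 to 0.125 over the alternatives). Eif4e itself averaged 166 ± 20.7 CPM with both compounds, 220.3 ± 20.3 with proline, 160.5 ± 22.1 with budesonide and 209.9 ± 31.3 in control (SD, n = 3 each) and was called in no comparison by edgeR. Its difference of -0.41 ± 0.14 between both compounds and proline (adjusted p = 0.0699) passed under 7 of the 23 alternatives, DESeq2 and limma-voom among them. Eif4e3 was near its detection limit, at 0.923, 0.292 and 0.667 CPM with both compounds, 9.68, 2.22 and 4.58 CPM with proline, 1.24, 0.465 and 0 CPM with budesonide and 1.64, 1.35 and 0 CPM in control, and was not called. The eIF4E repressors Eif4ebp1 and Eif4ebp2, which mTORC1 inactivates, and Eif4enif1, which carries eIF4E to the nucleus, were called in no comparison. Eif4ebp1 averaged 367 ± 4.76 CPM with both compounds, 356 ± 29.4 with proline, 402 ± 13 with budesonide and 432 ± 42.7 in control (SD, n = 3 each).

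Of the late initiation factors, Eif5b and Eif6 were each called lower in 1 comparison. Eif5b, the GTPase that joins the subunits, had 469, 444 and 426 CPM with both compounds and 598, 557 and 593 CPM in control, with no overlap, and fell by 0.38 ± 0.10 (SE, edgeR adjusted p = 0.0182). That call ended without both-compound 2 or 3 or control 1 (adjusted p = 0.000185 to 0.0755 over the alternatives). With budesonide, its difference of -0.32 ± 0.10 was not called (edgeR adjusted p = 0.051). It passed under 5 of the 23 alternatives, DESeq2 and limma-voom among them. Eif6, which keeps the large subunit from joining too early, had 198, 205 and 172 CPM with both compounds and 273, 254 and 290.3 CPM with proline, again with no overlap. It fell by 0.51 ± 0.12 (adjusted p = 0.0057), and this call held under every alternative. Between both compounds and control, the Eif6 difference of -0.37 ± 0.12 was not called (edgeR adjusted p = 0.058). It passed under 3 of the 23 alternatives, DESeq2 among them. Eif5, the GTPase activator of eIF2, had 540.4, 517 and 496 CPM with budesonide and 429.5, 431 and 433 CPM in control, all budesonide libraries above control, and its difference of 0.27 ± 0.11 was not called (adjusted p = 0.155). With both compounds it differed by 0.34 ± 0.11 from control and 0.29 ± 0.11 from proline (edgeR adjusted p = 0.055 and 0.093), neither called. These passed under 6 and 3 of the 23 alternatives, DESeq2 and limma-voom among them in both.

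Eif5a, the factor that carries the amino acid hypusine and helps ribosomes through stalling sequences such as runs of proline codons, had 1205, 1261 and 1032 CPM with both compounds, 1543, 1316 and 1495 CPM with proline, 905, 1111 and 881 CPM with budesonide and 1146, 1296 and 1045 CPM in control. All proline libraries lay above every other library, and the other 3 groups overlapped. Its log2 difference was 0.32 ± 0.11 between proline and control (edgeR adjusted p = 0.0879) and -0.32 ± 0.11 between both compounds and proline (adjusted p = 0.0773), and neither was called here. These passed under 2 and 5 of the 23 alternatives, DESeq2 and limma-voom among them. Eif5a2, a second gene, ranged from 2.96 to 11 CPM and was called in no comparison.

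In elongation, budesonide lowered eEF1B, the complex that exchanges GDP for GTP on eEF1A. All 3 of its genes fell with budesonide against control and again with both compounds against proline, in libraries that the 2 comparisons do not share. Their sum was 3599, 3587 and 4084 CPM with both compounds, 5013, 5227 and 4408 CPM with proline, 3358, 3173 and 3035 CPM with budesonide and 4313, 4161 and 4966 CPM in control. The budesonide sums lay below all control sums, and the sums with both compounds below all proline sums.

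Eef1d, an exchange subunit, had 347, 374 and 438 CPM with both compounds, 708, 696 and 587 CPM with proline, 337, 291 and 303 CPM with budesonide and 510.4, 519.6 and 668 CPM in control. The 6 libraries with budesonide lay below all 6 without it. Eef1d fell with budesonide by 0.87 ± 0.12 (SE, edgeR adjusted p = 0.000155), to 0.548 times the control level, and with both compounds against proline by 0.78 ± 0.12 (adjusted p = 0.000189), to 0.582 times the proline level. Both calls held under every alternative. Both compounds against control gave -0.55 ± 0.12 (adjusted p = 0.00692), a call that ended without both-compound 1 (adjusted p = 0.000479 to 0.0595 over the alternatives). Eef1b2, the other exchange subunit, had 2284, 2172 and 2383 CPM with both compounds, 2799, 2922 and 2552 CPM with proline, 1979, 1927 and 1818 CPM with budesonide and 2556, 2476 and 2552 CPM in control. Its budesonide libraries were the lowest, and all its libraries of both compounds lay below those with proline. Eef1b2 fell with budesonide by 0.41 ± 0.08 (adjusted p = 0.00389), a call that held under every alternative. With both compounds against proline it fell by 0.27 ± 0.08 (adjusted p = 0.0363), a call that ended without both-compound 1 or 2, proline 1 or 2 or control 2, with low counts kept in or with transcript length offsets (adjusted p = 0.0042 to 0.162 over the alternatives).

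Eef1g, the structural subunit, had 969, 1041 and 1263 CPM with both compounds, 1506, 1609 and 1268 CPM with proline, 1042, 955 and 914 CPM with budesonide and 1246, 1166 and 1745 CPM in control. Control 3 was far above the other control libraries, and 1 library of both compounds nearly reached the lowest proline library. Eef1g fell with budesonide by 0.51 ± 0.13 (SE, edgeR adjusted p = 0.0195) and with both compounds against proline by 0.42 ± 0.13 (adjusted p = 0.0437). The first call ended without budesonide 3 or control 3, with transcript length offsets, with the fit limited to the compared groups or without control 3 and budesonide 3 together (adjusted p = 0.000288 to 0.291 over the alternatives), and the second without both-compound 1 or 2 or proline 1 or 2 or with transcript length offsets (adjusted p = 0.00301 to 0.2 over the alternatives). Eef1e1, a related protein of the tRNA synthetase complex, had 80.6, 75.2 and 74.2 CPM with both compounds and 42.4, 50.5 and 67.4 CPM with budesonide and was called in no comparison.

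eEF1A and its modifying enzymes showed few calls. Eef1a1, the gene of the main eEF1A, had 381, 561 and 373 CPM with both compounds, 486, 559 and 505 CPM with proline, 501, 313 and 421 CPM with budesonide and 546, 419.6 and 413 CPM in control. Groups overlapped throughout and it was called in no comparison, but processed copies of this gene are abundant in the mouse genome and its count is uncertain. Among the 5 methyltransferases of eEF1A, Eef1akmt1 had 86.3, 69.4 and 71.3 CPM with proline against 47.9, 44.1 and 48.1 CPM in control, and 41.4, 45.8 and 40.4 CPM with both compounds. It rose with proline by 0.70 ± 0.20 (SE, edgeR adjusted p = 0.0325) and fell with both compounds against proline by 0.83 ± 0.20 (adjusted p = 0.00803), with no overlap in either comparison. The first call ended without proline 1 or 3 or any 1 control library (adjusted p = 0.0113 to 0.173 over the alternatives), and the second without proline 1 (adjusted p = 0.00111 to 0.0589 over the alternatives). The other 4 (Eef1akmt2, Eef1akmt3, Eef1akmt4 and Eef1aknmt) were called in no comparison.

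Eef2, the translocase of elongation and the gene with the cyclic AMP element at its start, had 2496, 2849 and 3275 CPM with both compounds, 3591, 3437 and 3106 CPM with proline, 2265, 2001 and 2077 CPM with budesonide and 2157, 2208 and 3253 CPM in control. Proline 3 lay below control 3, so the groups overlapped. Eef2 rose with proline by 0.41 ± 0.13 (SE, edgeR adjusted p = 0.0458), and the call ended without both-compound 2, proline 1 or 2 or control 1 or 2, with transcript length offsets or with the fit limited to the compared groups (adjusted p = 0.000184 to 0.215 over the alternatives). Its kinase Eef2k, which inhibits eEF2 by phosphorylation, had 23.5, 19 and 12.9 CPM with both compounds, 17.7, 15.7 and 19 CPM with budesonide and 11.9, 4.43 and 8.64 CPM in control, without overlap with control. The log2 differences from control of 1.14 ± 0.37 with both compounds (adjusted p = 0.0647) and 1.06 ± 0.37 with budesonide (adjusted p = 0.0909) were not called, and the first passed under 3 and the second under none of the 23 alternatives. The methyltransferase Eef2kmt had 25.5, 28.4 and 23.7 CPM with both compounds and 44.1, 54.8 and 41.5 CPM with proline, with no overlap, and fell by 0.85 ± 0.26 (adjusted p = 0.0355). That call ended without any 1 both-compound library or any 1 proline library or with transcript length offsets (adjusted p = 0.00526 to 0.143 over the alternatives).

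**Figure D4:**
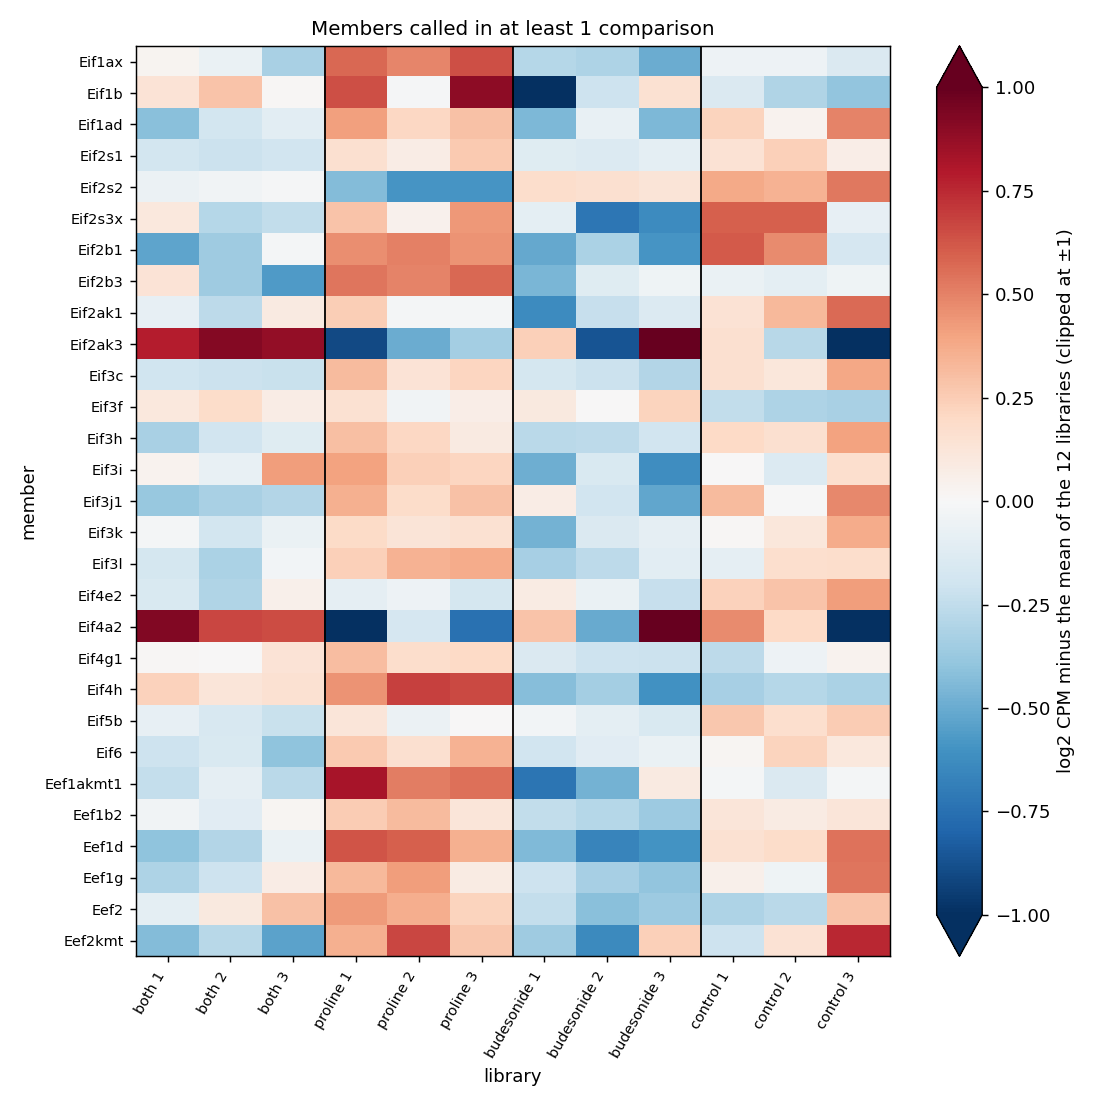
The 29 members called in at least 1 comparison, as log2 CPM minus the mean of the 12 libraries, with libraries in columns (both compounds, proline, budesonide, control) and colours clipped at 1 in either direction. Most rows are red in the proline columns and blue in the columns of both compounds and of budesonide; Eif2s2 is bluest with proline, and Eif2ak3 and Eif4a2 differ most between libraries of the same group.

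The budesonide effect could be set side by side in untreated and in proline-treated cells without a shared library. Members lowered in both were Eif1ad, Eif2b1, Eif3c, Eif3h, Eef1b2, Eef1d and Eef1g. These 7 are 70% of the 10 lowered against control and 43.8% of the 16 lowered against proline. Over all tested genes, 233 were lowered in both, which is 42.1% and 39.4% of the genes lowered in each. Budesonide raised 1 member against control, Eif3f, and both compounds raised 3 against proline, with 0 shared. Over all tested genes, 194 were raised in both, which is 55.7% and 24% of the genes raised in each. Of the proline calls, Eif4h alone was also called higher with both compounds against budesonide, 12.5% of the 8 members raised by proline and 50% of the 2 raised against budesonide. Over all tested genes these shares were 15% and 54.5%. Eef2 differed there by 0.44 ± 0.13 and was not called (SE, edgeR adjusted p = 0.0856). It passed under 6 of the 23 alternatives, DESeq2 and limma-voom among them. Of the 2 members lowered by proline, 0 were called lower there, against 9.05% of all genes lowered by proline.

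Transcript length moved with the budesonide results. Over all tested genes, the median log2 value of budesonide against control was -0.19 where the longest coding transcript measured at most 1 kb, and 0.20 where it exceeded 8 kb. The members were shorter than the tested genes, with a median of 2554 against 2973 bases. Within the length classes from 1 to 2 kb, 2 to 4 kb and 4 to 8 kb, the members' medians were -0.25, -0.27 and -0.16, against -0.14, 0.01 and 0.12 for all tested genes of those classes. With per-library offsets for length, 1 member rose and 12 fell with budesonide against control. The offsets ended the budesonide calls of Eif3h, Eif3k and Eef1g, while Eif4e2 and Eif5b were among members that passed with them. For both compounds against proline, the median over all tested genes was -0.12 up to 1 kb and 0.30 over 8 kb. With the offsets, 3 members rose and 15 fell there, and the calls of Eif3h, Eef1b2, Eef1g and Eef2kmt ended.

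Genes around these factors were followed in 6 lists. Over all tested genes, 3.17% rose and 4.71% fell with proline, and 2.51% and 4% with budesonide. With both compounds, 5.83% rose and 4.27% fell against proline, 3.34% and 3.83% against control, and 0.874% and 0.592% against budesonide. No list was tested as a set, so the counts below describe single genes. Of 14 tested genes of eIF2 phosphorylation and its stress response, proline lowered 4 (Asns, Atf4, Trib3 and Ddit3) and both compounds against control lowered 4 (Asns, Atf4, Trib3 and Chac1) and raised 1 (Impact). Asns, asparagine synthetase and a target of Atf4, averaged 155 ± 1.78 CPM with both compounds, 134 ± 2.45 with proline, 273 ± 25.4 with budesonide and 302 ± 47.6 in control (SD, n = 3 each), a fall with proline of 1.17 ± 0.13 (SE, edgeR adjusted p = 1.08e-06). Atf4, whose translation rises when eIF2 is phosphorylated, fell by 0.63 ± 0.12 with both compounds (adjusted p = 0.00143) and by 0.53 ± 0.12 with proline (adjusted p = 0.00522). Trib3, a pseudokinase induced with Atf4, fell by 0.94 ± 0.22 and 0.70 ± 0.21 in these comparisons (adjusted p = 0.00775 and 0.0445). Ddit3 (Chop), a stress-induced transcription factor, changed by -1.91 ± 0.55 (adjusted p = 0.034) at levels of 2.06 ± 1.11 CPM with proline and 7.67 ± 0.892 CPM in control. Impact, which restrains GCN2, averaged 92 ± 9.28 CPM with both compounds and 46 ± 5.19 CPM in control (SD, n = 3) and rose (adjusted p = 0.00137). The proline call of Trib3 ended without both-compound 1 or 2, any 1 proline library, budesonide 2 or any 1 control library, with low counts kept in or without control 3 and budesonide 3 together (adjusted p = 0.0162 to 0.136 over the alternatives), its call for both compounds without both-compound 2 (adjusted p = 0.000407 to 0.0627 over the alternatives), and the proline call of Ddit3 without both-compound 1 or 2, proline 1 or 2 or any 1 control library, with low counts kept in, with the fit limited to the compared groups or without control 3 and budesonide 3 together (adjusted p = 0.00647 to 0.144 over the alternatives).

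Against proline, both compounds raised 1 gene of that list, Ddit3, by 1.93 ± 0.55 (edgeR adjusted p = 0.0253), and lowered 1, the glutathione-degrading enzyme Chac1, by 1.92 ± 0.39 (adjusted p = 0.00234). The Ddit3 call ended without any 1 both-compound library or proline 1 or 2 or with low counts kept in (adjusted p = 0.00444 to 0.111 over the alternatives). Against budesonide, both compounds lowered 1, Asns, by 0.82 ± 0.12 (adjusted p = 0.00118). Budesonide against control gave 0 calls among the 14 in edgeR, where 1 had an unadjusted p below 0.05 for a higher and 2 for a lower level, limma-voom called 0 and DESeq2 called 1 as lower.

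Of 8 tested genes of termination and ribosome recycling, budesonide lowered 2 and both compounds against proline lowered the same 2, Denr and Mcts1, which act as a pair that releases small subunits and re-initiates. In these comparisons, 4% and 4.27% of all tested genes fell. Denr averaged 252 ± 13.4 CPM with both compounds, 358 ± 31.5 with proline, 234 ± 46.7 with budesonide and 354 ± 9.12 in control (SD, n = 3 each), a change of -0.60 ± 0.13 with budesonide (SE, edgeR adjusted p = 0.00604) and -0.51 ± 0.13 with both compounds against proline (adjusted p = 0.0122). Mcts1 changed by -0.87 ± 0.18 and -0.85 ± 0.18 (adjusted p = 0.00369 and 0.00253). Etf1, the release factor that reads stop codons, fell with proline by 0.37 ± 0.10 (adjusted p = 0.0274), and both compounds against control lowered 3 genes, Etf1, Denr and Mcts2. The proline call of Etf1 ended without proline 1 or 2 or control 1 or 3, with low counts kept in or without control 3 and budesonide 3 together (adjusted p = 0.00343 to 0.131 over the alternatives). For Denr, the call of both compounds ended without both-compound 1 or proline 2 (adjusted p = 0.00217 to 0.0628 over the alternatives) against proline and without both-compound 1 or 2 or control 1 (adjusted p = 0.00384 to 0.0977 over the alternatives) against control.

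Of 18 tested genes of poly(A) binding and cap-dependent control, proline raised 2, where 3.17% of all tested genes rose. The poly(A)-binding proteins Pabpc1 and Pabpc4, which hold the mRNA in a loop through Eif4g1, rose by 0.44 ± 0.13 and 0.86 ± 0.15 (SE, edgeR adjusted p = 0.0385 and 0.000548). Pabpc4 averaged 1213 ± 217 CPM with both compounds, 1320 ± 301 with proline, 648 ± 80.5 with budesonide and 728 ± 104 in control (SD, n = 3 each), and it was also 0.90 ± 0.15 higher with both compounds against budesonide (adjusted p = 0.00227). Gigyf1, a relative of the partner through which Eif4e2 represses mRNAs, rose with both compounds by 0.75 ± 0.20 against proline and 0.71 ± 0.21 against control (adjusted p = 0.0199 and 0.0354). The Pabpc1 call ended without any 1 proline library or control 3, with the fit limited to the compared groups or without control 3 and budesonide 3 together (adjusted p = 0.000862 to 0.182 over the alternatives), and those of Gigyf1 without both-compound 1 or 2 or proline 2 or 3 or with transcript length offsets (adjusted p = 0.00446 to 0.0867 over the alternatives) against proline and without both-compound 1 or 2 or control 1 or 2 or with transcript length offsets (adjusted p = 0.0145 to 0.137 over the alternatives) against control. Of 13 tested genes of mTORC1 and its TOP mRNA control, proline raised 1, where 3.17% of all tested genes rose. This was Larp1, the repressor of TOP mRNAs, which rose by 0.64 ± 0.13 (adjusted p = 0.00245). Both compounds raised Larp1 by 0.60 ± 0.13 against control and 0.56 ± 0.13 against budesonide (adjusted p = 0.00551 and 0.0299), and Larp4, a poly(A)-tail stabiliser, by 0.61 ± 0.18 against proline (adjusted p = 0.0329). Against budesonide, the Larp1 call ended without any 1 both-compound library or budesonide 2 or 3, with the fit limited to the compared groups or without control 3 and budesonide 3 together (adjusted p = 0.0022 to 0.147 over the alternatives), and the Larp4 call ended without both-compound 1 or 2 or proline 1 or 2 or with transcript length offsets (adjusted p = 0.00285 to 0.183 over the alternatives).

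Of 11 tested mitochondrial translation factors, 1 fell in each of 3 comparisons, where 4%, 4.27% and 3.83% of all tested genes fell. Mrrf, the ribosome recycling factor, fell with budesonide by 1.34 ± 0.33 (SE, edgeR adjusted p = 0.0157). Mtfmt, which formylates the initiator tRNA, fell with both compounds against proline by 1.23 ± 0.32 (adjusted p = 0.0147). The initiation factor Mtif2 fell with both compounds against control by 1.14 ± 0.27 (adjusted p = 0.00941). These calls ended without budesonide 1 or 3 or control 3, with the fit limited to the compared groups or without control 3 and budesonide 3 together (adjusted p = 0.000474 to 0.312 over the alternatives) for Mrrf, without both-compound 1 or 3 or proline 2 (adjusted p = 0.00304 to 0.078 over the alternatives) for Mtfmt and without both-compound 2 (adjusted p = 0.00127 to 0.059 over the alternatives) for Mtif2. The 8 tested enzymes of the list for hypusine on eIF5A and diphthamide on eEF2 gave 0 calls in edgeR in all 6 comparisons. At most 2 of them had an unadjusted p below 0.05 in any comparison and direction, and DESeq2 and limma-voom each called 1 as lower with both compounds against proline.

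Some counts may hold reads of a neighbour, because the strand setting of the counting is not given in the sources used here. In the RefSeq annotation, 7 of the 29 called members overlap another protein-coding gene: Eif1ad with Banf1, Eif2ak1 with Ankrd61 and Aimp2, Eif3j1 with Spg11, Eif4a2 with Rfc4, Eif5b with Rev1, Eef1d with Tigd5, and Eef2kmt with Alg1.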

How the data were processed

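RNA of 12 libraries of E14 cells was measured by 3′ end sequencing, per the labels' protocols. Tools listed in the submitters' processing notes are STAR 2.7.5c, featureCounts 2.0, cutadapt 2.5, bcl2fastq and DESeq2, with build GRCm39. Annotation, strand setting and handling of multiply mapped reads: not given in the sources used here. The authors deposited raw counts per gene symbol for all 12 libraries and a second table whose values are a signal, counts divided by 1 size factor per library (0.729 to 2.16 from the deposited values). Over its 19196 symbols, 100% (to 3 digits) of these signal values lay within 0.01 of the count over that factor, so the raw counts alone were tested.

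Counts were scaled by TMM, filtered with filterByExpr (minimum count 10, minimum total 15) and tested with edgeR 4.0.16 in R 4.3.3 (glmQLFit, glmQLFTest, two-sided), with 1 coefficient per group, 8 residual degrees of freedom and Benjamini-Hochberg adjustment over 13852 genes. A call is an adjusted p below 0.05. DESeq2 1.42.0 and limma-voom (limma 3.58.1), 2 other scalings, 2 other filters, length offsets, a replicate block, fits of the compared libraries alone and left-out libraries were alternatives. Shares of counts were described without a test, although an exact permutation test had been planned, since the members were chosen with results known. Replicates of a group differed by more than sampling noise (chi-square per degree of freedom at least 5.49). No shared deviation of same-numbered libraries was seen: 0 of 18 such pairs had correlated deviations above 0.1. That does not show whether they were grown or prepared together.

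The members and the pathway and marker lists were chosen with earlier results of these data known. Every member called in a comparison is named; of the members called in none, the rule names the one of highest mean CPM in each complex. Every other uncalled member named in the text was added after its values were seen. Sequences, biotypes and overlapping genes came from RefSeq, build GRCm38.p6. Transcript lengths came from GENCODE transcripts of build GRCm38. No coordinates were converted. Symbols ending in -ps did not match the rule; 13 of them held 317 counts, 0.0138% of the members' 2296549. Figures were drawn with matplotlib 3.10.9 in Python 3.11.15.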

Additional observations from a re-analysis of the deposited data

Results flagged for a closer look

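Eif2s2 stood out because its response to proline differed with budesonide. The proline effect with budesonide minus the proline effect without it was 0.77 on the log2 scale (edgeR adjusted p = 0.00145). Its log2 difference was -0.19 for both compounds against budesonide (adjusted p = 0.326, not called) and -0.96 for proline against control (adjusted p = 7.93e-08). In each of these comparisons all 3 libraries with proline lay below all 3 without it.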

How the results depend on the processing

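No called member or pathway gene changed direction under any alternative. Of the member calls, 3 of 10 for proline against control (Eif1ax, Eif2s2, Eif4h), 2 of 11 for budesonide against control (Eef1b2, Eef1d), 5 of 19 for both compounds against proline (Eif1ax, Eif2s2, Eif3c, Eif6, Eef1d), 2 of 10 for both compounds against control (Eif2s2, Eif3c), 1 of 2 for both compounds against budesonide (Eif4h) and 1 of 1 for the interaction (Eif2s2) held throughout. With 1 library left out, the members called ranged from 3 to 11 for proline, from 7 to 12 for budesonide, from 8 to 22 for both compounds against proline, from 3 to 13 for both compounds against control and from 1 to 3 for both compounds against budesonide. The interaction was called for 1 member each time. DESeq2 called 18 members for budesonide, 16 for both compounds against control and 4 for both compounds against budesonide, where limma-voom and a fit that kept low counts in also called 4 and length offsets called 1. With the fit limited to the compared groups, budesonide called 5, and without control 3 and budesonide 3 it called 6 and the interaction 2. The members' share of counts differed by -0.221 percentage points between both compounds and proline without Rn18s and mitochondrial genes in the total, against -0.311 with them. Same-numbered libraries did not deviate together (correlations -0.0767 to 0.0529), which does not show whether they were grown or prepared together. With the replicate block, 5 members were called for proline against control and 1 for both compounds against budesonide. The settings listed beside each call leave the block out; it also ended the calls of Eif1b, Eif2b3, Eif3f, Eif4e2, Eif4g1 and Trib3 (proline against control), Eif2s1, Eef1b2, Eef1g and Larp4 (both compounds against proline), Eif2b1 and Gigyf1 (both compounds against control) and Eif3i (both compounds against budesonide). The causes of these shifts were not tested.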
